A study of Mus musculus with 19 samples.

Results

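The 9 CXC chemokine ligand genes described here were Pf4, Cxcl16, Cxcl1, Cxcl2, Cxcl9, Cxcl10, Cxcl12, Cxcl13 and Cxcl14. They were taken by symbol from the 18639 gene symbols of the deposited table, and all 9 passed the filter on low values (2 or more libraries at 1 normalized read or above). RNA was sequenced from cochleae, the hearing organs of the inner ear, and GFP-positive cells were compared with GFP-negative cells as macrophages against the remaining, largely stromal, glial and epithelial cells. Every mouse was heterozygous for a GFP knock-in at CX3CR1 (CX3CR1 GFP/+), so all groups, young and old, had 1 such allele, and the GFP gate collects any cell type in which Cx3cr1 is active. The young group was aged 1.5 months and the old group 12 to 14 months. Sorted whole cochleae gave 4 old macrophage libraries (replicates 1, 7, 12 and 17), 2 young macrophage libraries (9 and 15), 4 old nonmacrophage libraries (10, 11, 18 and 19) and 4 young nonmacrophage libraries (2, 5, 6 and 14). In young mice, 1 library of each sort also came from the auditory nerve and from the lateral wall (the tissue along the outer side of the cochlear duct), and 1 came from an unsorted cochlea.

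CXC chemokines are small secreted proteins that steer leukocytes by binding receptors that couple to G proteins. One branch, with Cxcl1 and Cxcl2, draws neutrophils through Cxcr2, and another, with Cxcl9 and Cxcl10, is induced by interferons and draws T cells and natural killer cells through Cxcr3. Cxcl12 is made mainly by stromal cells and holds blood cell precursors and lymphocytes in place through Cxcr4, while Cxcl13 guides B cells through Cxcr5, Cxcl16 is a membrane-bound ligand of Cxcr6, and Pf4 is best known from platelet granules.

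Values are normalized reads, that is, reads per gene divided by a factor for each library. Libraries held 20.6 to 71.6 M reads (M, mega). Old libraries held 50.6 to 71.6 M reads and young sorted whole-cochlea libraries 24.9 to 35.1 M reads, apart from nonmacrophage replicate 14 at 60.2 M reads. Depth and age otherwise cannot be told apart. A value of 0 allows up to 3 reads, or 1.38 to 5.33 normalized reads depending on the library, and such limits cover counting error only. All 11 macrophage markers in the table were called higher in macrophages over both ages, where 13.6% of all genes were. The list includes Cx3cr1, the locus of the GFP allele used for the sort, so its call is no separate check. The summed level of the 11 markers was 183365 to 304307 in old macrophages, 763091 to 938911 in young macrophages and 1986 to 4505 in the whole-cochlea nonmacrophages. Summed neuron markers were also high in whole-cochlea macrophages, at 136799 to 273693 against 9199 to 31930 in nonmacrophages, and were 471.7 in the lateral wall macrophage library. In bulk libraries, fewer cells of a type and less RNA per cell cannot be told apart.

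Compared per kilobase (kb) of exon, Pf4, Cxcl2 and Cxcl16 made up most of the CXC ligand mRNA in macrophages, and Cxcl12 was the leading ligand in most nonmacrophage libraries. Lengths count all annotated exon bases of a gene, 8.18 kb for Cxcl12 and 0.72 to 3.02 kb for the others. A gene whose transcripts use only part of these bases is understated, so the ranks and shares of Cxcl12 depend on this choice. In old macrophages the order of mean levels, in normalized reads per kb, was Cxcl2 4774, Pf4 3692, Cxcl16 1869, Cxcl13 915.3, Cxcl14 868.7, Cxcl10 605.6, Cxcl1 385.8, Cxcl12 139.7 and Cxcl9 71.1. The ranges of Cxcl2 (2311 to 6611) and Pf4 (2846 to 5003) overlapped, as did those of Cxcl13, Cxcl14 and Cxcl10, while every Cxcl16 value (1395 to 2322) lay below every Pf4 value. In the 2 young macrophage libraries Pf4 alone gave 89.8% and 84.6% of the 9-gene sum per kb, against 25.8% to 29.3% in old macrophages, where Cxcl2 gave 23.3% to 45.0%.

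In old nonmacrophages Cxcl12 reached 970.0 to 1132 normalized reads per kb, above Cxcl1 (512.4 to 652.8), Cxcl13 (346.2 to 574.9) and Cxcl16 (303.4 to 334.9). Cxcl14 spread from 175.4 to 732.7 per kb and overlapped all 3. Pf4, Cxcl2 and Cxcl9 reached at most 50.1, 87.0 and 42.9 per kb in the old nonmacrophage libraries. Replicate 19 was the one library of the 4 in which Cxcl12 did not lead, with Cxcl10 at 4073 per kb, or 58.9% of its sum. In young nonmacrophages Cxcl12 gave 28.6% to 62.7% of the sum, and replicate 14, in which Cxcl1 gave 39.0%, was the one where it did not lead. Summed over the 9 genes, macrophages held 9920 to 17071 normalized reads per kb when old and 95153 and 45095 when young, and whole-cochlea nonmacrophages held 2328 to 6918.

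**Figure D1:**
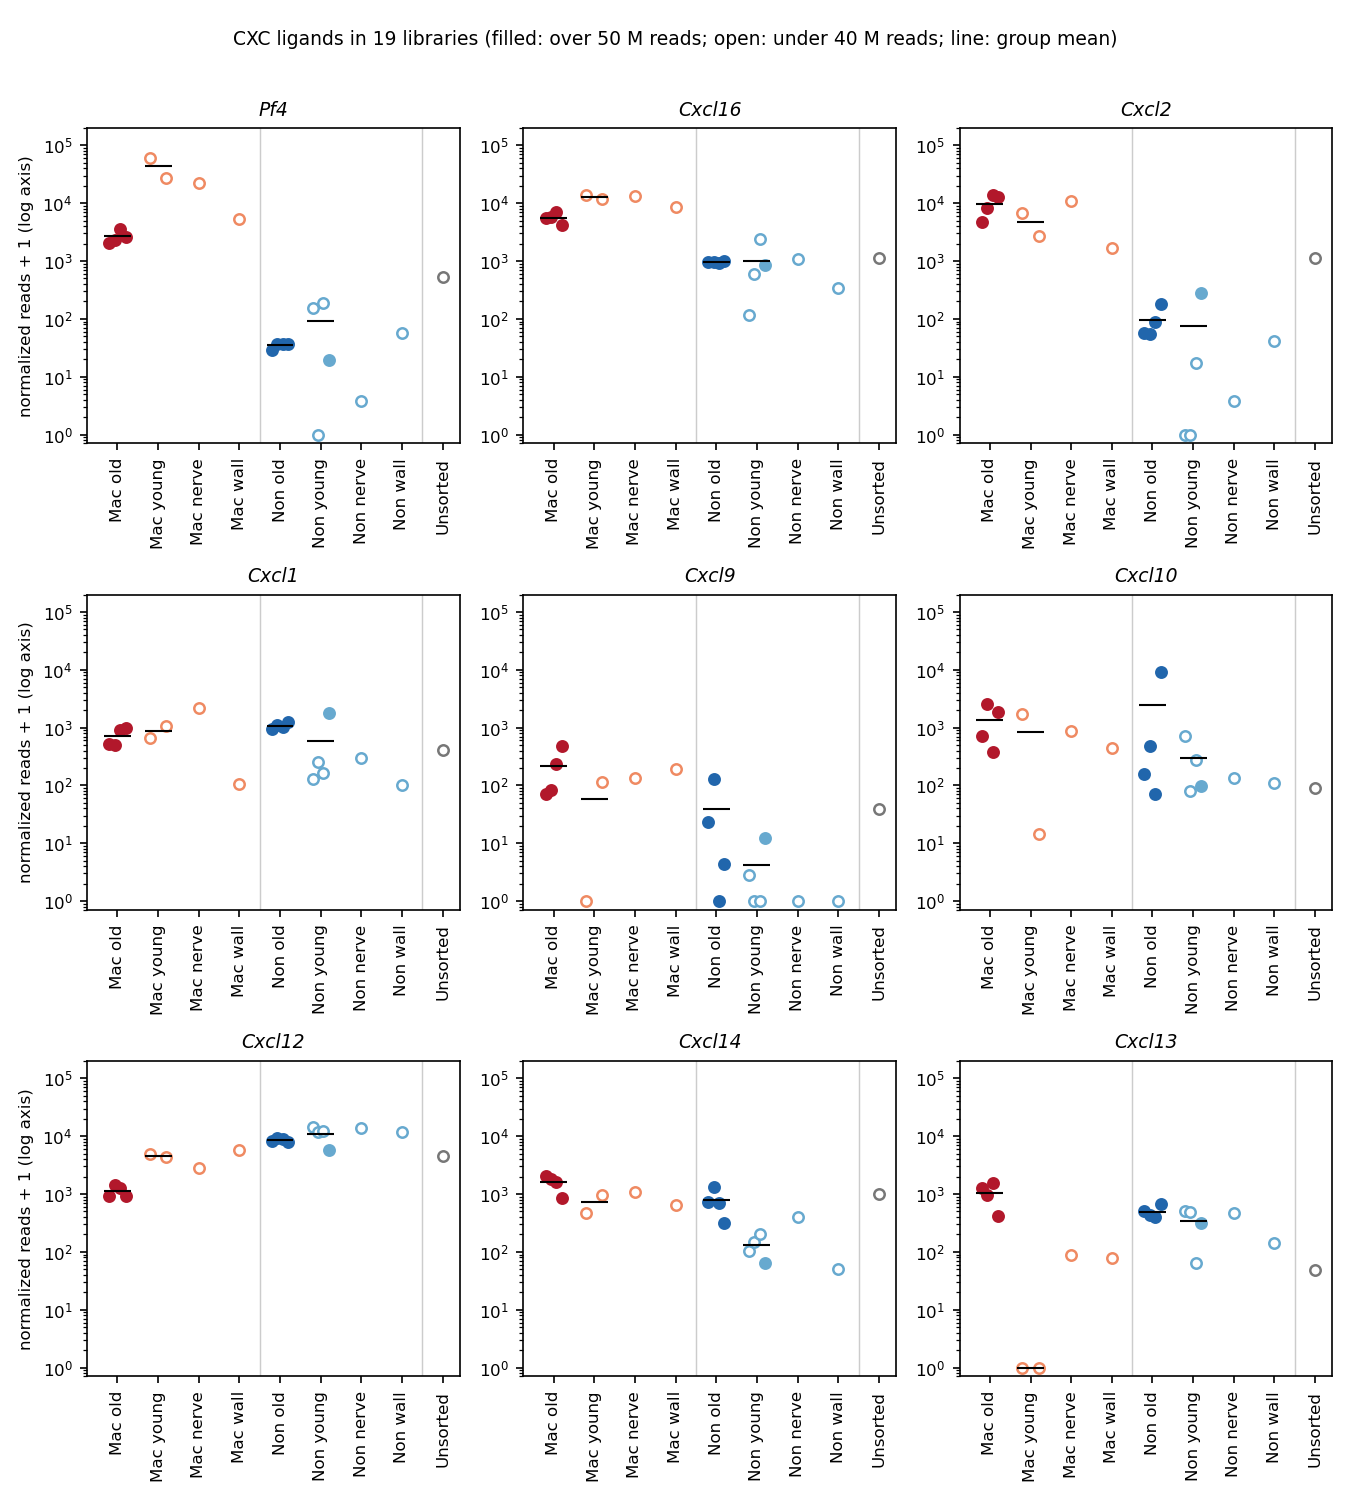
Normalized reads + 1 on a log axis for the 9 ligands in all 19 libraries, 1 point per library, filled for libraries over 50 M reads and open for libraries under 40 M reads, with a line at each whole-cochlea group mean. Pf4, Cxcl16 and Cxcl2 are high in every macrophage library, Cxcl12 is lower in macrophages, and Cxcl13 is at 0 in the 2 young whole-cochlea macrophage libraries.

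**Figure D2:**
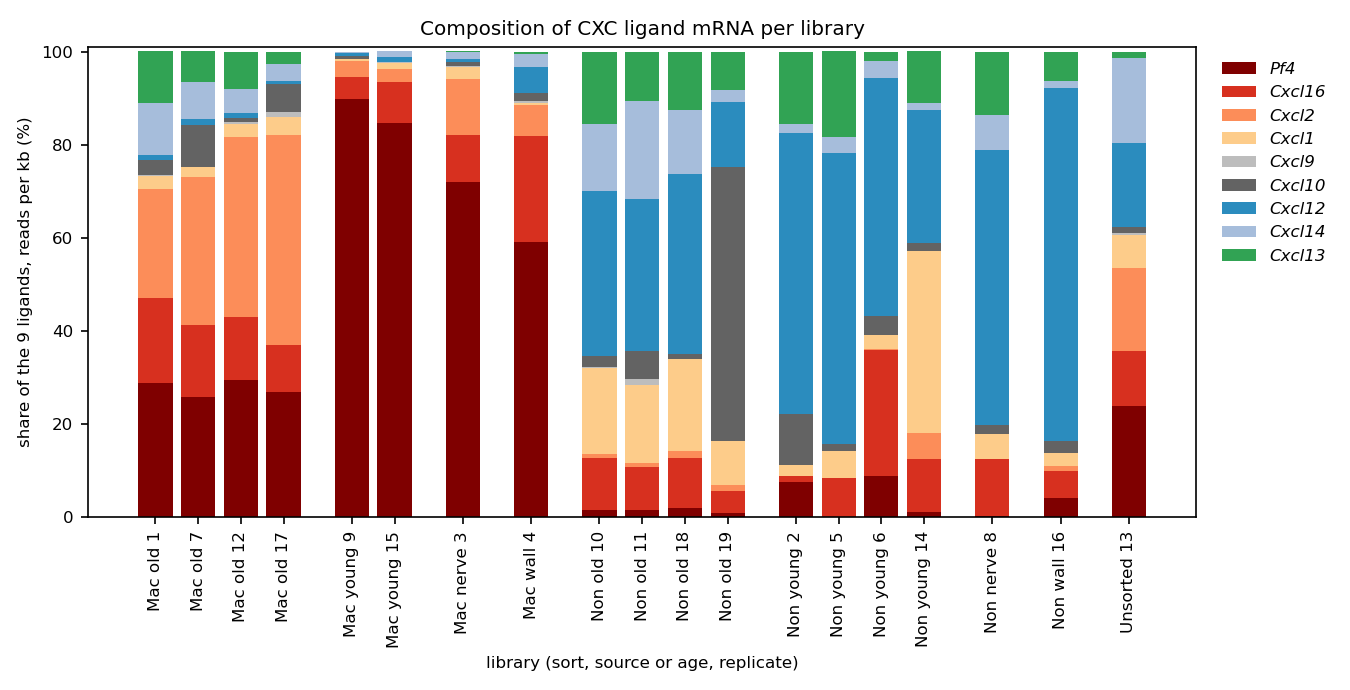
Share of each ligand in the 9-gene sum of normalized reads per kb of exon, 1 bar per library, stacked to 100%. Pf4 takes 84.6% and 89.8% of the young whole-cochlea macrophage bars, Cxcl2 and Pf4 share most of the old macrophage bars, and Cxcl12 takes 76.0% of the lateral wall nonmacrophage bar.

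Of the 9 ligands, 4 were called higher in macrophages over both ages (Pf4, Cxcl2, Cxcl16 and Cxcl14) and 2 lower (Cxcl12 and Cxcl13), where limma called 13.6% of all 18441 genes higher and 25.7% lower, 39.3% in all. The ligands' median log2 difference was 1.82 and that of all genes was -0.50. Among old libraries 3 ligands were higher and 1 lower, against 18.6% of all genes called, 9.25% higher and 9.36% lower. Among young libraries 4 were higher and 2 lower, against 31.5% of all genes called, 9.18% higher and 22.3% lower. The ligands' medians were 1.17 in old and 2.16 in young libraries, and those of all genes were -0.19 and -0.61. The medians are the same with Cxcl13 at its bound, since it is the lowest of the young differences either way. Leaving out any 1 library left 4 calls in old libraries and 6 or 7 in young libraries. When libraries were weighted by their quality, the 2 young macrophage libraries took weights of 0.067 each and none of the 9 young differences was called by limma (the weighted adjusted p was 0.052 for Pf4 and 0.11 for Cxcl16), while 8 were called in old libraries. Fitted without the old libraries, the young comparison called 3 of the 9. Groups that do not overlap are common in these data: 53.3% of all genes tested did not overlap between sorts in old libraries, 29.1% between sorts in young libraries, 45.1% between ages in macrophages and 17.4% between ages in nonmacrophages.

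Pf4, the platelet factor that is also transcribed in tissue macrophages, showed the widest sort difference of the 9 ligands in young libraries and the second, after Cxcl2, in old ones. Old macrophages held 2052, 2348, 3607 and 2639 normalized reads in replicates 1, 7, 12 and 17, against 28.3, 35.8, 36.1 and 35.1 in old nonmacrophages (replicates 10, 11, 18 and 19). Young macrophages held 61600 and 27493 in replicates 9 and 15, against 152.9, 0, 187.6 and 18.7 in young nonmacrophages (replicates 2, 5, 6 and 14). Every macrophage library thus lay above every nonmacrophage library, and both young macrophage libraries lay above all 4 old ones. The log2 difference between sorts was 6.23 (SE 1.25, limma adjusted p = 0.0039) in old and 10.55 (SE 1.54, limma adjusted p = 0.00018) in young libraries, or 78.7-fold and 496-fold between means.

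Platelet RNA was looked at beside these values through 9 platelet and megakaryocyte markers. Their summed level was 144.7 to 330.4 normalized reads in old macrophages, 0 and 751.9 in young macrophages, 571.4 to 821.9 in old nonmacrophages and 464.4 to 1408 in young nonmacrophages. No marker of this list was called higher in macrophages over both ages, and 3 were called lower. Of all genes, 13.6% were called higher and 25.7% lower. Gp1ba, Gp1bb, Gp6, Treml1 and Tubb1 were at 0 in both young macrophage libraries, including replicate 9, which had no read of any of the 9 markers and the highest Pf4 level of the series. Ppbp, the CXC ligand stored with Pf4 in platelet granules, was at 0 in young macrophage replicate 9, at 373.7 in replicate 15 and at 1.09 to 7.83 in old macrophages. The nerve macrophage library held 652.6 of the summed markers and 185.0 of Ppbp, beside Pf4 at 22582. The wall macrophage library held 297.1 and 0, beside Pf4 at 5341. The part of platelets in the Pf4 values was not tested.

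Between ages, Pf4 was 16.7-fold lower in old than in young macrophages by the group means (2662 ± 674.5, SD, n = 4, against 44547 ± 24117, SD, n = 2), with no overlap. The log2 difference of -3.98 (SE 1.54) missed the threshold in limma (adjusted p = 0.066). It passed with edgeR's quasi-likelihood test, run on whole reads (-4.00, adjusted p = 0.0098), with DESeq2 (-4.10, adjusted p = 0.0011), with a pseudocount of 10 and with only the macrophage groups fitted, and the authors' deposited table gives it an adjusted p of 0.000733. In 8 of 12 other settings it was not called (limma adjusted p up to 0.69), and over the 12 it ran from -4.10 to -2.08. The young nerve and wall macrophage libraries held 22582 and 5341 normalized reads of Pf4. Summed macrophage markers were lower in old than in young macrophage libraries as well, and their part in the Pf4 difference was not tested.

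The Pf4 promoter is shown because Pf4 led the ligands of the young macrophages and its window held none of the 5 motifs searched. The 250 bases before the RefSeq start (GRCm38.p6, chr5:90772185-90772434, plus strand) are printed 5′ to 3′, with any match in capitals.
Pf4: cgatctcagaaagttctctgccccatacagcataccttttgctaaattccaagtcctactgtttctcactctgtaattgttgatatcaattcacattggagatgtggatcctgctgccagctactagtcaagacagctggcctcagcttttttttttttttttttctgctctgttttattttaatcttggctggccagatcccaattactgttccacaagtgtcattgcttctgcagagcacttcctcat
The motifs, searched on both strands, were kappaB (by its consensus), the interferon-stimulated response element (by its name), the gamma-activated sequence TTCNNNGAA, the AP-1 site TGANTCA and the TATA box TATAAA. Of 32851 windows of this length before RefSeq starts, 7.25% held kappaB, 2.98% the interferon-stimulated response element, 7.02% TTCNNNGAA, 6.75% TGANTCA and 12.4% TATAAA. A match is a description of letters and not of a bound site. Windows were found for 8 of the 9 ligands, all but Cxcl16, and no matches of different motifs overlapped in them.

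Cxcl16, which exists as a membrane-anchored adhesion ligand and as a shed chemokine, was high in all macrophage libraries. It stood at 5500, 5849, 7016 and 4215 normalized reads in old and at 13725 and 12032 in young macrophages. Nonmacrophages held 950.3, 972.4, 916.5 and 1012 when old and 117.3, 589.7, 2412 and 845.0 when young. The sorts did not overlap at either age, and the old nonmacrophage values lay within a narrow band while the young ones spread widely. The log2 difference was 2.53 (SE 0.64, limma adjusted p = 0.014) in old and 4.39 (SE 0.78, limma adjusted p = 0.00090) in young libraries. Old macrophages lay below both young ones, 2.28-fold by the means, but this was not called (log2 difference -1.21, SE 0.78, limma adjusted p = 0.25), except with only the macrophage groups fitted (limma adjusted p = 0.016).

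Cxcl2, a neutrophil attractant, was high in macrophages and low in nonmacrophages. Old macrophages held 4779, 8339, 13671 and 12702 normalized reads, and young macrophages 6663 and 2703. Nonmacrophages held 55.4, 54.4, 88.4 and 180.0 when old and 0, 0, 16.3 and 284.5 when young, the last in replicate 14. The sorts did not overlap, and the lowest macrophage library was above the highest nonmacrophage library at each age. The log2 difference was 6.76 (SE 1.43, limma adjusted p = 0.0053) in old and 8.98 (SE 1.75, limma adjusted p = 0.0017) in young libraries, the latter not called when the old libraries were left out of the fit (limma adjusted p = 0.065). Old and young macrophages overlapped in Cxcl2 (log2 difference 1.10, 95% interval -2.67 to 4.88).

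Cxcl1, the close relative of Cxcl2 that acts on the same receptor, did not follow it. Macrophages held 524.1, 493.6, 894.4 and 981.6 normalized reads when old and 653.0 and 1083 when young. Old nonmacrophages held 960.7, 1095, 1041 and 1224, and young nonmacrophages held 128.0, 247.9, 161.5 and 1801, again with replicate 14 far above the others. The groups overlapped in both sort comparisons, and neither difference was called (log2 -0.64, SE 0.67, in old and 1.43, SE 0.82, in young libraries, with limma adjusted p = 0.60 and 0.20). The old difference was called lower in macrophages with only the old groups fitted (limma adjusted p = 0.033) and with library quality weights (-0.58). Among nonmacrophages, all 4 old libraries held more Cxcl1 than young replicates 2, 5 and 6, and the age difference was called only without replicate 14 (log2 2.63, limma adjusted p = 0.0012, against 1.79 and 0.14 with it). Without replicate 14, Cxcl2 was also called higher in old nonmacrophages (log2 5.03 against 3.33) and Cxcl1 was called higher in young macrophages than in young nonmacrophages (log2 2.28).

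The genes for Pf4, Cxcl1 and Cxcl2 lie on the same strand of chromosome 5 in mm10, Cxcl1 at chr5:90891241-90893115 and Cxcl2 at chr5:90903871-90905938, 10.8 kb apart, with Pf4 (chr5:90772435-90773383) 117.9 kb before Cxcl1. The promoters of Cxcl1 (chr5:90890995-90891244, plus strand) and Cxcl2 (chr5:90903649-90903898, plus strand) are shown because both hold a kappaB match of the same letters, while Cxcl2 and not Cxcl1 was called between the sorts. Each is the 250 bases before the RefSeq start in GRCm38.p6, 5′ to 3′, and capitals mark the kappaB match.
Cxcl1: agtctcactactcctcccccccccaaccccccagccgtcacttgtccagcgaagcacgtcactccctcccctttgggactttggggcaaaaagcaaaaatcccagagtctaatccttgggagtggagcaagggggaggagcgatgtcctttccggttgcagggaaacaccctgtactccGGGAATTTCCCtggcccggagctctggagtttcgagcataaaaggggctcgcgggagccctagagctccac
Cxcl2: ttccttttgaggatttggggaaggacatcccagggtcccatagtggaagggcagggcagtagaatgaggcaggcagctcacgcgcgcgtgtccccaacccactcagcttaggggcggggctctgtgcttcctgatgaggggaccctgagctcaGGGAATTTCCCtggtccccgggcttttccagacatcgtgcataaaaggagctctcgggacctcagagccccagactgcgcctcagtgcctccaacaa
The capitals cover a pair of kappaB matches shifted by 1 base, 71 to 61 bases before the start in Cxcl1 and 97 to 87 bases before it in Cxcl2. No other motif of the 5 was found in these windows. Cxcl1 and Cxcl2 are related in sequence, and how the authors' counting treated reads that fit both is not given in the sources used here.

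Cxcl9 and Cxcl10, the interferon-induced ligands of Cxcr3, varied widely among replicates. Cxcl9 was at 68.6, 81.6, 234.5 and 472.5 normalized reads in old macrophages and at 0 and 115.2 in young ones. Nonmacrophages held 22.1, 129.4, 0 and 3.3 when old and 1.8, 0, 0 and 11.2 when young. Cxcl9 thus had its highest values in macrophages, with overlap at both ages. The log2 difference of 3.90 (SE 1.65) in old libraries was not called by limma (adjusted p = 0.13). It passed with quantile normalization (4.12, limma adjusted p = 0.037), library quality weights (4.5, 0.0063) and only the old groups fitted (0.027). The difference over both ages, 3.03 (SE 1.30), missed the threshold as well (limma adjusted p = 0.081). Over both ages it passed with DESeq2 (adjusted p = 0.037), quantile normalization, a pseudocount of 10, the nerve and wall libraries, or without young macrophage replicate 9 (log2 4.74, limma adjusted p = 0.010) or old nonmacrophage replicate 11 (3.63, limma adjusted p = 0.038).

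Cxcl10 was at 713.3, 2526, 378.3 and 1838 normalized reads in old macrophages and at 1692 and 13.5 in young ones. Old nonmacrophages held 156.8, 481.1, 69.5 and 9173, and young nonmacrophages 718.3, 79.0, 277.4 and 97.3. The groups overlapped in every comparison, and old nonmacrophage replicate 19 held more Cxcl10 than any other library. No Cxcl10 difference was called with all libraries fitted. Without young macrophage replicate 9, the age difference in macrophages was called (log2 6.19, limma adjusted p = 0.038, against 2.75 and 0.29). In old libraries the log2 difference was 1.17 (SE 1.59, limma adjusted p = 0.71) although the mean was 0.552-fold, and its sign was the opposite with edgeR (-0.81) and DESeq2 (-0.87). Replicate 19 did not share high values of the other interferon-induced ligands, with Cxcl9 at 3.3 and Cxcl11 at 69.7.

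Cxcl9 (chr5:92321347-92328079) and Cxcl10 (chr5:92346638-92348889) lie 18.6 kb apart on the minus strand of chromosome 5. The Cxcl10 promoter (chr5:92348890-92349139, minus strand, GRCm38.p6) is shown because it held matches of 3 of the 5 motifs, more than any other ligand window. Capitals mark, 5′ to 3′, the interferon-stimulated response element at 213 to 204 bases before the start, kappaB at 159 to 150 and 104 to 94, and TGANTCA at 74 to 68.
Cxcl10: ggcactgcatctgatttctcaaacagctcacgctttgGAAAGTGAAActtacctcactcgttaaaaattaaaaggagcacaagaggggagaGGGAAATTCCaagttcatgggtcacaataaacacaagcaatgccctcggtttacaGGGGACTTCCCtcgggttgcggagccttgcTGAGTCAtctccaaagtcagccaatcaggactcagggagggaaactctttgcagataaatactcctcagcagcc
The Cxcl9 window held TATAAA and no other motif of the 5.

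Cxcl12, the stromal ligand of Cxcr4 and of the scavenging receptor Ackr3, was lower in macrophages at both ages. Old nonmacrophages held 8146, 9254, 8846 and 7931 normalized reads and young nonmacrophages 14259, 11932, 12358 and 5755, the last in replicate 14. Old macrophages held 927.0, 1450, 1285 and 907.8, and young macrophages 4852 and 4326. The sorts did not overlap at either age, and the young macrophage libraries lay between the old macrophages and the nonmacrophages. The log2 difference was -2.93 (SE 0.27, limma adjusted p = 1.6e-05) in old and -1.19 (SE 0.33, limma adjusted p = 0.014) in young libraries, or 7.48-fold and 2.41-fold between means. Fitted without the old libraries, the young difference was not called (limma adjusted p = 0.17).

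Cxcl12 was the ligand that limma called lower in old than in young macrophages, by 4.02-fold between means (log2 -2.03, SE 0.33, adjusted p = 0.00057), and its age difference in macrophages differed from that in nonmacrophages (interaction -1.73, SE 0.42, limma adjusted p = 0.021). In nonmacrophages the age difference was -0.30 (SE 0.27, limma adjusted p = 0.52), and without replicate 14 it was -0.59 (limma adjusted p = 0.048). With library quality weights, neither the age difference in macrophages (limma adjusted p = 0.32) nor the interaction (0.64) was called. With the nerve and wall libraries added to the young groups the interaction was -1.54 (limma adjusted p = 0.050). With the nerve and wall macrophages in place of the young whole-cochlea macrophages, the age difference in macrophages and the interaction were both still called.

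Markers of cells that are known to make Cxcl12 were compared beside it. All 9 fibroblast markers, all 9 endothelial markers and 8 of 9 pericyte and smooth muscle markers were called lower in macrophages over both ages. Of all genes, 25.7% were called lower in that comparison. Summed endothelial markers were 5879 to 6754 normalized reads in old and 22810 to 27956 in young macrophages, against 36184 to 91335 in whole-cochlea nonmacrophages, and none of the 9 was at 0. Summed pericyte and smooth muscle markers were 3563 to 6081 in old and 14769 to 41318 in young macrophages. With age in macrophages, 3 of 9 endothelial and 4 of 9 pericyte and smooth muscle markers were called lower and none higher, as Cxcl12 was, where 5.57% of all genes were called lower. Fibroblast markers went the other way with age, with 4 of 9 called higher and none lower, where 24.1% of all genes were called higher. Their sums overlapped between ages (6732 to 9835 and 5391 to 12271), and Col1a1, Dpt and Pi16 were at 0 in both young macrophage libraries. The part of these cells in the Cxcl12 values was not tested.

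Cxcl13, which guides B cells into follicles, had no read in either young whole-cochlea macrophage library. Old macrophages held 1266, 969.1, 1558 and 417.6 normalized reads. Nonmacrophages held 504.3, 428.1, 398.2 and 661.1 when old and 515.6, 488.9, 63.6 and 314.5 when young. Old macrophages overlapped old nonmacrophages, while the young macrophages lay below every other library of the series. With 3 reads per library as the limit behind a 0, mean Cxcl13 was at least 243-fold higher in old than in young macrophages and at least 79-fold higher in young nonmacrophages than in young macrophages. The fitted log2 differences, whose size depends on the pseudocount, were 9.89 (SE 0.83, limma adjusted p = 2.4e-06) between old and young macrophages and -8.07 (SE 0.83, limma adjusted p = 8.2e-06) between young sorts.

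The sort difference of Cxcl13 was 0.95 in old libraries (SE 0.68, limma adjusted p = 0.39). It was called with only the old groups fitted (limma adjusted p = 0.044) and with library quality weights (1.23, 0.0025). The negative value over both ages, -3.56, therefore came from the young libraries and was called, as was the interaction (9.02, SE 1.07, limma adjusted p = 0.00012). The calls over both ages and for the interaction were lost with library quality weights (limma adjusted p = 0.056 and 0.082) and with the nerve and wall libraries pooled in (0.10 and 0.11). The other young macrophage libraries were not at 0, with 85.9 normalized reads in the auditory nerve and 76.6 in the lateral wall. With these in place of the 2 young whole-cochlea macrophage libraries, Cxcl13 was still called higher in old macrophages (log2 3.53), but the young sort difference (-1.71, limma adjusted p = 0.086), that over both ages (-0.38, limma adjusted p = 0.56) and the interaction (2.66, limma adjusted p = 0.060) were not called. In old against young macrophages, 4 of 9 fibroblast markers (Fbln1, Pi16, Pdgfra and Col1a1) and 6 of 8 Schwann cell and glia markers were called higher too, where 24.1% of all genes were. So were 5 of 12 cochlear epithelium markers. Summed fibroblast markers (6732 to 9835 in old, 5391 to 12271 in young macrophages) and cochlear epithelium markers (22709 to 46270 and 16104 to 42992) overlapped between ages. Summed Schwann cell and glia markers were 132199 to 391276 in old and 70017 to 86233 in young macrophages. The part of these cells in the Cxcl13 values was not tested.

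Cxcl14, made by epithelia and fibroblasts and less well matched to a receptor, was called higher in macrophages over both ages (log2 1.82, SE 0.41, limma adjusted p = 0.0033) and higher with age in nonmacrophages. The call over both ages was lost with library quality weights (1.86, limma adjusted p = 0.39). Old macrophages held 2027, 1807, 1644 and 870.0 normalized reads, and young macrophages 472.2 and 955.1. Nonmacrophages held 730.7, 1339, 712.9 and 320.4 when old and 101.3, 147.1, 199.1 and 64.2 when young. The sorts overlapped in old and not in young libraries, with log2 differences of 1.14 (SE 0.51, limma adjusted p = 0.15) and 2.50 (SE 0.63, limma adjusted p = 0.0091). Fitted without the old libraries, the young difference was not called (limma adjusted p = 0.23). The old difference was called with only the old groups fitted (limma adjusted p = 0.032) and with library quality weights (1.24, 0.0047). All 4 old nonmacrophage libraries lay above all 4 young ones, replicate 14 included, and the mean rose 6.06-fold with age (log2 2.54, SE 0.51, limma adjusted p = 0.025).

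Cxcl14 was the 1 ligand of 9 called with age in nonmacrophages, where limma called 1.72% of all genes (1.64% higher, 0.0813% lower). The call was lost with edgeR (2.58, adjusted p = 0.090), quantile normalization (2.65, limma adjusted p = 0.054), library quality weights (2.49, 0.077) or only the nonmacrophage groups fitted (2.54, 0.063), and without old replicates 10 (2.51, 0.083), 11 (2.22, 0.10) or 18 (2.52, 0.082) or young replicate 2 (2.47, 0.074). The ligands' median log2 age difference in nonmacrophages was 1.24, beside 0.39 for all genes. In macrophages 1 ligand was called higher with age (Cxcl13) and 1 lower (Cxcl12), where 29.7% of all genes were called (24.1% higher, 5.57% lower), and the medians were 1.10 and 0.88. For the interaction, 1 ligand was called in each direction, where 7.94% of all genes were called (6.98% higher, 0.954% lower), and the medians were -1.73 and 0.46. The young sort comparison, the age comparison in macrophages and the interaction share the 2 young macrophage libraries.

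**Figure D3:**
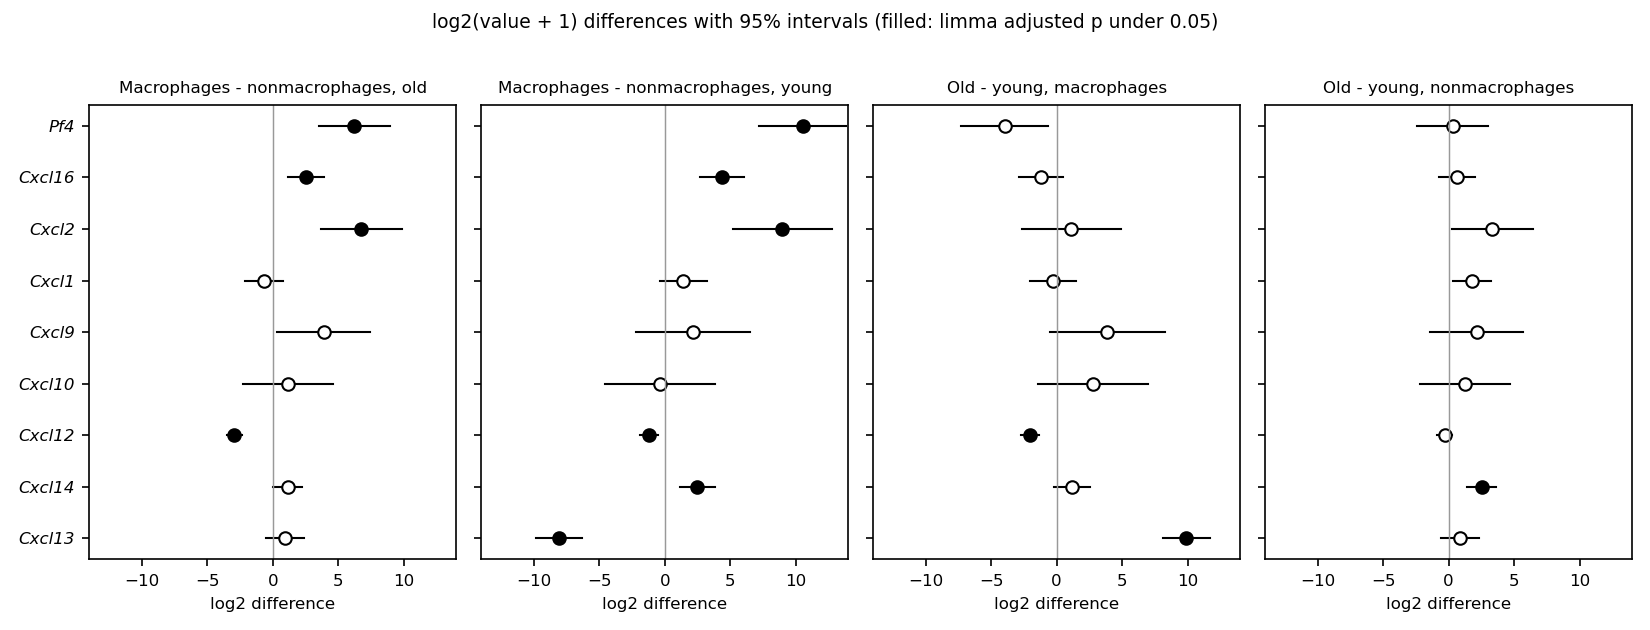
Differences of log2(value + 1) for the 9 ligands in the sort comparison at each age and in the age comparison of each sort, with 95% intervals, filled where limma's adjusted p was under 0.05. Pf4, Cxcl16 and Cxcl2 lie to the right and Cxcl12 to the left in both sort panels, Cxcl13 stands at 9.89 in the age panel of macrophages, and Cxcl14 at 2.54 is the filled point in the age panel of nonmacrophages.

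The single auditory nerve and lateral wall libraries gave no test, and the intervals of their ratios (95%) cover counting error only. Cxcl16 was 12.3-fold (11.4 to 13.3) higher in nerve macrophages than in nerve nonmacrophages (13231 and 1076 normalized reads) and 25.8-fold (22.5 to 29.6) higher in wall macrophages (8669 and 336.4). Pf4 was at 22582 in nerve and 5341 in wall macrophages, against 2.80 (2 reads) and 56.6 in their nonmacrophages, a ratio of 8073 (2234 to 66671) in the nerve and 94.4 (68.3 to 134) in the wall. Cxcl2 was at 10857 and 1714 in nerve and wall macrophages, against 2.80 (2 reads) and 39.8. Cxcl16, Pf4 and Cxcl2 therefore stood higher in macrophages in both substructures, as in the whole cochlea.

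Cxcl12 was lower in macrophages in both substructures, at 0.199 (0.188 to 0.209) of the nonmacrophage level in the nerve (2807 and 14138 normalized reads) and at 0.483 (0.464 to 0.502) in the wall (5754 and 11924). The wall macrophage library, with the higher Cxcl12, also held more endothelial markers (32099 against 4735 summed normalized reads) and more pericyte and smooth muscle markers (50090 against 2694) than the nerve macrophage library. Summed fibroblast markers were 25737 in the wall and 20340 in the nerve macrophage library, and summed macrophage markers were 455951 and 1259959. The part of these cells in the Cxcl12 values was not tested. Cxcl9 had no read in either nonmacrophage library and, against the limit of 3 reads, was at least 32-fold higher in nerve and at least 42-fold higher in wall macrophages, at 135.5 and 193.0. Cxcl14 was 2.66-fold (2.31 to 3.07) higher in nerve and 13.3-fold (9.30 to 19.7) higher in wall macrophages. Cxcl10 was 6.64-fold (5.32 to 8.35) and 4.02-fold (3.10 to 5.28) higher in macrophages of nerve and wall.

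Between the substructures, Cxcl1 was the ligand with the widest ratio among macrophages, at 2144 normalized reads in the nerve and 102.6 in the wall, a 20.9-fold (16.3 to 27.1) difference. Cxcl2 was 6.34-fold (5.95 to 6.76) and Pf4 4.23-fold (4.07 to 4.39) higher in nerve than in wall macrophages, and Cxcl12 was lower there at 0.488 (0.460 to 0.517). Cxcl1 was 7.23-fold (6.25 to 8.40) higher in macrophages than in nonmacrophages of the nerve, while the wall libraries did not differ beyond counting error (1.03, 0.723 to 1.48). In nonmacrophages, Cxcl14 was 8.23-fold (5.70 to 12.3) and Cxcl13 3.29-fold (2.60 to 4.19) higher in the nerve than in the wall. Pf4 and Cxcl2, with 2 reads each in the nerve, were lower there, at 0.0494 (0.00577 to 0.192) and 0.0703 (0.00809 to 0.281) of the wall level. The unsorted young cochlea held 523 normalized reads of Pf4, 1122 of Cxcl2, 1115 of Cxcl16, 4546 of Cxcl12 and 1020 of Cxcl14.

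Of the 8 CXC receptors listed, 7 were in the table and 6 were tested, Cxcr1 being at 0 in all but the wall nonmacrophage library (24.5 normalized reads). Over both ages 1 was called lower in macrophages, Ackr3, and none was called higher, a share near the 25.7% of all genes called lower. Ackr3, which takes up Cxcl12 without driving migration, was at 521.5, 427.2, 528.5 and 823.0 in old and 1108 and 1406 in young macrophages, against 1739, 2041, 1927 and 2146 in old and 6276, 3664, 5409 and 1834 in young nonmacrophages. It was lower in macrophages without overlap at both ages (log2 -1.81, SE 0.35, in old and -1.64, SE 0.42, in young libraries, with limma adjusted p = 0.0028 and 0.011), the same direction as its ligand Cxcl12. The young call was lost with only the young groups fitted (limma adjusted p = 0.13) and with library quality weights (-1.49, 0.62). Without young macrophage replicate 9 the young difference was -1.47, in a fit with 1 young macrophage library, for which no call is given here. The call over both ages was lost with library quality weights (-1.68, limma adjusted p = 0.051).

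Cxcr4, the signalling receptor of Cxcl12, was at 285.5, 312.3, 435.9 and 312.1 normalized reads in old macrophages and at 15.8 and 38.4 in young ones, against 70.7, 108.7, 94.5 and 42.8 in old and 184.9, 70.8, 363.8 and 46.5 in young nonmacrophages. It was called higher in old macrophages than in old nonmacrophages (log2 2.14, limma adjusted p = 0.043) and than in young macrophages (3.69, limma adjusted p = 0.0054). The first call was lost without any 1 of the old libraries (limma adjusted p from 0.066 to 0.12) and the second with quantile normalization (0.85, limma adjusted p = 0.54) and library quality weights. The young nerve and wall macrophages held 700.5 and 915.9, more than any old macrophage library. With these 2 in place of the young whole-cochlea macrophages, the age difference was -1.27 (limma adjusted p = 0.21).

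Cxcr3, the receptor of Cxcl9 and Cxcl10, was at 75.1 to 223.2 normalized reads in old macrophages and at 0 and 1332 in young ones, and Cxcr6, the receptor of Cxcl16, at 8.71 to 79.9 and at 0 and 299.2. For both, young macrophage replicate 9 had no read and replicate 15 had the highest value of the 14 sorted whole-cochlea libraries. Summed T cell and NK cell markers were 58.2 to 147.5 in old macrophages, 2547 and 10909 in young macrophages and 117.5 to 1966 in whole-cochlea nonmacrophages, and their part in these values was not tested. Cxcr2, the receptor of Cxcl1 and Cxcl2 and itself a neutrophil marker, was at 5.65 to 61.6 in whole-cochlea macrophages and 10.9 to 277.4 in nonmacrophages (log2 -1.74 over both ages, limma adjusted p = 0.061), and at 455.7 in wall nonmacrophages, where summed neutrophil markers reached 126511. Ackr1 overlapped between sorts at both ages.

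**Figure D4:**
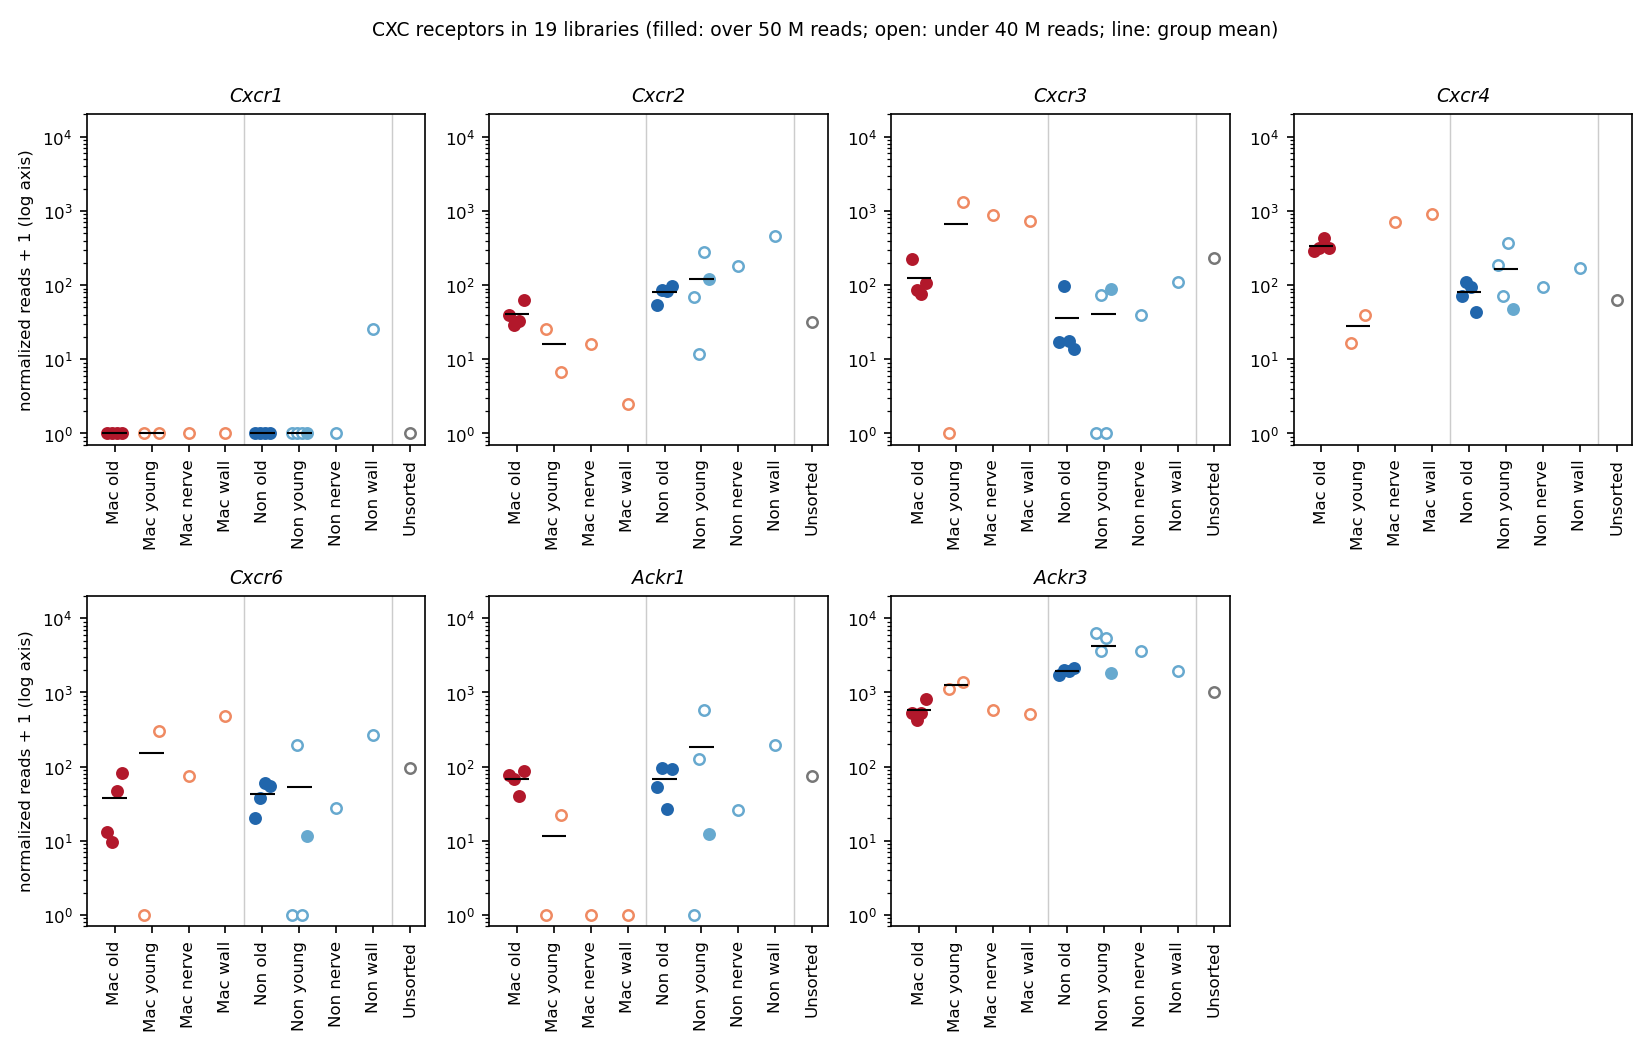
Normalized reads + 1 on a log axis for the 7 CXC receptors in the table, in all 19 libraries, 1 point per library, filled for libraries over 50 M reads and open for libraries under 40 M reads, with a line at each whole-cochlea group mean. Ackr3 is lower in macrophages, and Cxcr4 is at 15.8 and 38.4 in the young whole-cochlea macrophages but at 700.5 and 915.9 in the nerve and wall macrophages.

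Of 6 other CXC ligands listed, 4 were in the table (Cxcl3, Cxcl11, Cxcl17 and Ppbp). Cxcl3, a further ligand of Cxcr2, was at 9.76 to 64.2 normalized reads in old macrophages and at 0 in both young ones, and was called higher in old macrophages than in old nonmacrophages (log2 2.44, limma adjusted p = 0.045) and young macrophages (4.52, a size that depends on the pseudocount, limma adjusted p = 0.0038). The first call was lost with edgeR and DESeq2 (adjusted p = 0.26 and 0.27) and the second with edgeR (0.063), quantile normalization (1.28, limma adjusted p = 0.27) and library quality weights. The young nerve macrophage library held 62.8 of Cxcl3 and the wall macrophage library 0. The second call was also lost with the nerve and wall libraries pooled in (3.02, limma adjusted p = 0.071). With them as the young macrophages, the age difference was 1.52 (limma adjusted p = 0.44). Cxcl11, the third ligand of Cxcr3, was called lower in macrophages over both ages (log2 -2.88, limma adjusted p = 0.031), a call lost with edgeR (-1.94, adjusted p = 0.12), quantile normalization (-1.97, limma adjusted p = 0.082) and without young macrophage replicate 9 (-1.30, limma adjusted p = 0.20). It stood at 8.34 to 59.3 in old macrophages and at 69.7 to 190.6 in old nonmacrophages. Cxcl17 reached at most 54.5, in the nerve macrophage library.

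Genes of the signals that act on these ligands were taken from 3 lists. Of 16 tested genes of NF-kappaB signalling and its inducers, 10 were called higher and 1 lower in macrophages over both ages, where 13.6% of all genes were higher and 25.7% lower, and the median log2 difference was 1.66 beside -0.50 for all genes. Those with the smallest adjusted p were the cytokine Il1a (10.34, SE 0.40, limma adjusted p = 2.8e-09), the bacterial sensor Tlr2 (4.63, SE 0.32) and Tlr4 (2.37, SE 0.28), with the NF-kappaB subunit Rel at 3.59 (SE 0.42). The gene called lower was the interleukin 1 receptor Il1r1 (-4.24, SE 0.60). With age in macrophages 2 of the 16 were called higher (Tnfaip3 and Il1r1) and 2 lower (Tlr4 and Tnfrsf1a). Of all genes, 24.1% were called higher and 5.57% lower in that comparison. The median log2 difference of the 16 was -0.19, beside 0.88 for all genes. These lists were chosen with earlier results of these data known.

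Of 11 genes of interferon gamma signalling, 3 were called higher in macrophages over both ages and none lower, where 13.6% of all genes were higher and 25.7% lower (median 0.07 beside -0.50). They were the receptor chains Ifngr1 (2.19, SE 0.16) and Ifngr2 (2.21, SE 0.18) and the myeloid factor Irf8 (4.28, SE 0.66). With age in macrophages, Ifngr1 (-1.78, SE 0.25) and Ifngr2 (-0.97, SE 0.29) were called lower and none of the 11 higher, where 5.57% of all genes were lower and 24.1% higher. Of 14 genes of chemokine processing and retention, 2 were called higher and 10 lower in macrophages, against the same 13.6% and 25.7% of all genes (median -1.54). The higher ones were the secreted protease Mmp9 and Adam17, which sheds membrane proteins. The lower ones with the smallest adjusted p were genes of heparan sulfate proteoglycans, on which chemokines are held, namely Sdc4 (-1.41, SE 0.13), Sdc2 (-1.67, SE 0.18), Hspg2 (-3.63, SE 0.51) and Sdc1 (-4.42, SE 0.62).

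For each ligand the genes with the most similar pattern were found by the root mean square (RMS) of the log2 differences over the 19 libraries, each gene centred on its own mean. These are descriptions and carry no test, since the libraries share depth and sort. The closest pattern of any was that of Rhoj to Cxcl12 (0.34), followed by Cpne8 and Pltp (0.42 each), where the spread of Cxcl12 itself was 1.29. Cxcl16 was most like Tmem106a (0.67), Apobec1 and Lrrc3, and Cxcl1 was most like the immediate early genes Junb (0.73) and Ier2 (0.77) and the feedback inhibitor Socs3 (0.81). Cxcl14 was most like Zfp385a (0.94), Basp1 and Prkcb, Pf4 like Wfdc17 (0.99), Bcl2a1b and P2ry6, and Cxcl13 like Rxrg (1.04), Fjx1 and Zfp777. Cxcl2 was most like Lilrb4a (1.51), Naip2 and Lilr4b, Cxcl9 like Slamf8 (1.43), Gpr132 and Gpr35, and Cxcl10 had no close match (Pomc, 1.65, against a spread of 2.17). Lilrb4a, Lilr4b and Bcl2a1b belong to families of near-identical copies, and their separate values are uncertain.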

How the data were processed

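RNA was sequenced from 19 samples, each from 1 mouse per the labels' protocols, with libraries from SMARTer Ultra and Nextera XT kits; low-quality RNA was excluded, and a subset that the labels do not name had a second sequencing run. The submitters' processing notes name mm10, TopHat2, Partek and DESeq2 without versions; the counting of shared or antisense reads is not given in the sources used here. The signal values the authors deposited were read counts per gene over a factor of each library, per the file headers. Low values fell on steps of 1 read, from which the reads were recovered: 100.0% of values under 10000 reads and 99.89% of all were whole within 0.1 read. The p-values, adjusted p-values and signed fold changes of 2 comparisons in the authors' deposited table were used only where named.

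The main test was limma 3.58.1 (R 4.3.3) (trend and robust options) on log2(value + 1). It took the 14 whole-cochlea libraries that had been sorted, as 4 groups that share 1 estimate of spread, so that the spread of the 2 young macrophage libraries is assumed to be like that of the other groups. The 18441 genes that reached 1 in 2 or more libraries entered, and p-values were adjusted over all of them (Benjamini-Hochberg, 0.05, two-sided) in each of 6 contrasts. A difference on the log2(value + 1) scale understates changes of low genes. Alternatives were edgeR 4.0.16, DESeq2 1.42.0, quantile normalization, pseudocounts of 0.1 and 10, other filters, library quality weights, only the groups compared, the nerve and wall libraries pooled in, and each library left out. A common total and the nerve and wall libraries as the young macrophages were chosen after seeing the data. The limma step was tested on simulated data.

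Exon lengths and positions came from GENCODE M21 (GRCm38, the build named mm10), in which 18294 of 18639 symbols were found, and promoter sequences from RefSeq (GRCm38.p6). Replicates differed by more than sampling noise (48.7 to 884.1 of chi-square for each degree of freedom), and each counted once. The 9 ligands and all gene lists were chosen with earlier results of these data known. Named genes were all 9 ligands, CXC receptors and other CXC ligands by level, at most 4 genes of each other pathway list by adjusted p, and 3 genes of similar pattern per ligand (mean of at least 20). Genes named beyond this rule, such as those called with age in macrophages and the markers at 0, were chosen after their values were seen.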

Additional observations from a re-analysis of the deposited data

Results flagged for a closer look

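In groups of 4 libraries, a library was singled out where its gap to the next value was more than 0.829 of the group's range. Of 27 pairs of a gene and a group examined, 5 met this. The limit flags about 1 in 20 by chance if values are normally distributed. It was applied to normalized reads without a log, which are skewed, so the chance rate here is not known and 5 is not read as an excess. Young nonmacrophage replicate 14 did so for 3 ligands, with Cxcl1 at 1800.7 normalized reads (128.0 to 247.9 in the others), Cxcl2 at 284.5 (0 to 16.3) and Cxcl9 at 11.2 (0 to 1.8). It was also the one young library with over 50 M reads. Old nonmacrophage replicate 19 did so for Cxcl10 at 9173.1 (69.5 to 481.1), and old nonmacrophage replicate 10 for Pf4, whose 28.3 lay just under the 35.1 to 36.1 of the others.

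The age difference differed between macrophages and nonmacrophages for Cxcl12 (interaction -1.73 on the log2 scale) and for Cxcl13 (9.02). Both values use the 2 young whole-cochlea macrophage libraries. With the nerve and wall libraries in their place, the interaction of Cxcl12 was still called lower. That of Cxcl13 was not called (2.66, limma adjusted p = 0.060).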

How the results depend on the processing

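No paired analysis was possible because the replicate numbers in the labels run over all samples and no 2 groups share any. Counts of called ligands in the report are of 9. The count with age in nonmacrophages (1) became 0 with edgeR, quantile normalization, library quality weights and only the groups compared, and ranged from 0 to 4 over libraries left out, with 4 without young replicate 14 (3 higher, 1 lower). Quality weights gave 8 in old (6 higher, 2 lower), 0 in young, 1 with age in macrophages and 0 for the interaction. Only the groups compared gave 8 in old, 3 in young and 4 with age in macrophages (1 higher, 3 lower). The interaction count was 0 with the nerve and wall libraries pooled in and 1 with them as the young macrophages. Leaving out 1 library gave 6 to 7 calls over both ages, 4 in old, 6 to 7 in young, 2 to 3 with age in macrophages and 2 to 3 for the interaction.

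Log2 differences that changed sign were uncalled in the report, except those of Cxcr4 and Sdc1 below. For Cxcl10 they were -0.81 (edgeR) and -0.87 (DESeq2) in old, 1.50, 1.56, 0.95 (quantile), 0.17 (weights), 0.89 (pooled) and 1.64 (nerve and wall as young macrophages) in young, and -2.31, -2.42 and -0.47 for the interaction with edgeR, DESeq2 and nerve and wall. Cxcl9 gave interactions of -1.41, -1.64, -0.64 and -2.18 (edgeR, DESeq2, pooled, nerve and wall) and -0.03 with age in macrophages (nerve and wall), and Cxcl2 interactions of 0.90 and 0.72 (edgeR, DESeq2). With age in nonmacrophages, Cxcl16 gave -0.06 with both count tools, and Pf4 gave -1.40, -1.41, -0.75 (quantile) and -0.34 (pseudocount 10). Cxcl1 gave 0.13 (pooled), 0.08 (common total) and 0.55 (nerve and wall) with age in macrophages, and -0.02 over both ages (nerve and wall). Cxcr4 in young gave 0.58 (quantile), 0.21 (pooled) and 2.70 (nerve and wall), and with nerve and wall -1.27 with age in macrophages and -0.57 for the interaction, where Sdc1 gave -1.30 with age in macrophages. With 1 library left out, signs changed within the ranges -1.30 to 2.13 (both ages), -3.78 to 3.09 (young), -0.68 to 6.19 and -0.19 to 2.15 (age in macrophages and nonmacrophages) and -1.92 to 4.94 (interaction) for Cxcl10, -1.27 to 5.59 (young) and -1.69 to 5.17 (interaction) for Cxcl9, -0.65 to 0.08 for Cxcl1 with age in macrophages, and -0.14 to 1.31 for Cxcl16 and -1.26 to 1.26 for Pf4 with age in nonmacrophages. The cause of these changes was not tested.

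Young macrophages rest on 2 libraries, sequenced less deeply than all old ones, and the nerve, wall and unsorted libraries are single. Over the settings that kept all libraries or exchanged groups of them, 539 values of the 9 ligands kept direction and call, 21 gained and 24 lost the call and 28 changed sign. With 1 library left out, the numbers were 478, 10, 4 and 12.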

Other observations

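Genes near the singled-out values, chosen after these were seen, are given without explanation. Young nonmacrophage replicate 14 held 96631 normalized reads of Junb, 33229 of Ier2 and 23152 of Socs3. The other 3 young nonmacrophage libraries held 7458 to 17150 of Junb, 6516 to 7315 of Ier2 and 1111 to 3382 of Socs3, and the old nonmacrophages 60941 to 99311, 25145 to 30549 and 15183 to 34531. For these immediate early and feedback genes, as for Cxcl1, replicate 14 was therefore nearer to the old libraries than to its own group.

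Old nonmacrophage replicate 19, with its high Cxcl10, held 5551 normalized reads of the interferon-induced Gbp2, against 1069 to 1763 in the other 3 old nonmacrophage libraries. It held 3.3 of Cxcl9 (0 to 129.4 in the others) and 69.7 of Cxcl11 (71.7 to 190.6).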
